A study of Mus musculus with 9 samples.

Results

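Angpt1, Mdk, Pdgfa and Cxcl5 encode secreted factors that act on blood vessels, and they were followed by name through the gene tables of 3 groups of mouse bone marrow cells. They are 4 of the 2810 genes listed in at least 1 of the 3 tables. RNA was sequenced from endothelial progenitor cells (EPCs) of male (M-EPC), female (F-EPC) and ovariectomized female (OVX-EPC) mice, with 3 libraries per group. The study asked about epigenetic mechanisms, independent of estrogen, behind sex differences in how these cells aid repair of the heart. The animals were C57BL/6 J mice of 8 weeks, and the ovaries had been removed at about 35 days of age. In all 3 groups, marrow was depleted of lineage cells, and sorted on magnetic beads for Sca-1 and CD31, so that the cells come from marrow and not from the vessel wall. The labels call the cells freshly isolated in one field and give culture in EGM-2 in another, as the methods do, so that the time in culture before RNA extraction is not settled by these sources. The labels do not say whether the libraries of a group came from separate animals, pools or cultures, and the p-values measure the spread among these libraries only.

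Angiopoietin 1, encoded by Angpt1, is the agonist of the receptor Tie2 (gene Tek) and is known for keeping vessels mature and quiescent. Midkine, encoded by Mdk, is a heparin-binding growth factor, and Pdgfa encodes the A chain of platelet-derived growth factor, which signals through the receptor Pdgfra. Cxcl5 is a CXC chemokine that attracts neutrophils through Cxcr2 and promotes vessel growth, as CXC chemokines with the Glu-Leu-Arg motif do, whereas CXC chemokines without this motif, such as Cxcl9 and Cxcl10, are known to restrain it.

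In GRCm38 (GENCODE M21), Mdk (ENSMUSG00000027239.14) lies on chromosome 2 from 91929805 to 91932297 on the minus strand. Cxcl5 (ENSMUSG00000029371.7) lies on chromosome 5 from 90759360 to 90761624 on the plus strand, and Pdgfa (ENSMUSG00000025856.15) on the same chromosome from 138976014 to 138997370 on the minus strand. Angpt1 (ENSMUSG00000022309.9) spans 42424723 to 42676977 on the minus strand of chromosome 15. The annotated antisense genes 6330403L08Rik and Gm17473 overlap Pdgfa over 2315 bases and Angpt1 over 737 bases. The methods name a directional library kit, but the strand setting used in counting is not given in the sources used here, so whether reads from these antisense genes were counted for Pdgfa and Angpt1 in the overlaps is not known.

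The coding stretch around the first CXC cysteine is shown for Cxcl5 and for the other listed CXC ligands named here, because the codons before that cysteine separate the ligands with the Glu-Leu-Arg motif from those without it. All 5 stretches lie in exon 2 on chromosome 5 and are read 5′ to 3′ on the coding strand. Capitals mark the 3 codons before the first cysteine of the CXC pair.
Cxcl5: GAGCTGCGTtgtgtttgcttaacc
Ppbp: GAACTGCGCtgcagatgtacgaat
Pf4: GATCTTAGCtgtgtgtgtgtgaag
Cxcl9: AATGCACGAtgctcctgcatcagc
Cxcl10: ACGGTCCGCtgcaactgcatccat
These stretches occupy chr5:90759718-90759741 (plus strand, Cxcl5), chr5:90769076-90769099 (plus, Ppbp), chr5:90772935-90772958 (plus, Pf4), chr5:92326836-92326859 (minus, Cxcl9) and chr5:92348175-92348198 (minus, Cxcl10). The capitals of Cxcl5 and Ppbp encode Glu-Leu-Arg, and those of Pf4, Cxcl9 and Cxcl10 do not.

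The tables hold 2093 genes for M-EPCs against F-EPCs, 1317 for M-EPCs against OVX-EPCs and 811 for F-EPCs against OVX-EPCs, all of which had passed the authors' screen. The values are normalized counts, that is, reads divided by a size factor set for each library in each table, and between 454298 and 2070442 reads per library fell on the listed genes. Size factors ran from 0.819 to 1.11. Angpt1 and Cxcl5 were listed in both tables with M-EPCs, Mdk was listed against F-EPCs alone, and Pdgfa against OVX-EPCs alone. None of the 4 genes was listed between F-EPCs and OVX-EPCs, so that none could be called there, while 98.2% of its 811 genes were called (67.3% lower in F-EPCs) and 98.9% did not overlap between the groups (68.2% with F-EPCs below). Values outside the tables were not used here. Because listed genes were already selected for a difference, the tests below describe its size and its stability rather than its presence. In these bulk samples, fewer cells of a type and less RNA per cell cannot be told apart.

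Between M-EPCs and F-EPCs, the 3 listed genes Angpt1, Mdk and Cxcl5 were all lower in M-EPCs. The threshold for a call, in limma on log2(normalized count + 1), was an adjusted p under 0.05 (Benjamini-Hochberg over the whole table) with a log2 fold change of 1 or more in either direction. All 3 were called, against 97.6% of all listed genes, and 49.3% of all listed genes were called lower in M-EPCs. The libraries of the 2 groups did not overlap for any of the 3, which was also so for 98.3% of listed genes, 49.6% with M-EPCs below. The shares of calls and of non-overlapping genes are thus near the background and single out none of the 3. Scaling on the listed genes themselves, by the RLE method in edgeR, shifted the median log2 fold change by -0.35 and the share of calls that were lower in M-EPCs from 50.5% to 61.4%.

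Angpt1 was read 6, 6 and 5 times in the M-EPC libraries and 125, 148 and 120 times in the F-EPC libraries. The normalized counts were 5.71, 5.39 and 5.98 in M-EPCs and 126.2, 143.3 and 113.7 in F-EPCs. Every F-EPC library stood far above every M-EPC library, and the smallest ratio between libraries of the 2 groups was 19.0. The means were 5.69 ± 0.295 and 127.8 ± 14.8 normalized counts (SD, n = 3 each), a 22.4-fold difference. The log2 fold change was -4.26 (SE 0.12, adjusted p = 1.50e-05 in limma), rank 87 of 2093 genes by absolute size. The exact two-sided permutation test over libraries gave p = 0.10, the smallest value that 3 against 3 libraries allow.

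Mdk was read 20, 3 and 10 times in M-EPCs and 49, 50 and 25 times in F-EPCs. The normalized counts were 19.0, 2.69 and 11.96 in M-EPCs and 49.5, 48.4 and 23.7 in F-EPCs. The groups did not overlap, but the lowest F-EPC library lay only 1.24 times above the highest M-EPC library, and the spread within each group was wide. The means were 11.2 ± 8.19 and 40.5 ± 14.6 (SD, n = 3 each), a 3.61-fold difference, with a log2 fold change of -2.002 (SE 0.70, adjusted p = 0.0337 in limma). The exact permutation test gave p = 0.10.

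The call for Mdk was lost in limma without M-EPC replicate 3 (log2 fold change -2.20, adjusted p = 0.0551), without F-EPC replicate 1 (-1.82, 0.0944) and without F-EPC replicate 2 (-1.84, 0.0918). Without M-EPC replicate 2, the library with 3 reads, the gene stayed called but the log2 fold change shrank to -1.29. The count models, edgeR and DESeq2, called Mdk with adjusted p-values from 1.60e-04 to 0.00204.

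Cxcl5 was read 0, 8 and 0 times in M-EPCs and 20, 32 and 30 times in F-EPCs. The normalized counts were 0, 7.18 and 0 in M-EPCs and 20.2, 31.0 and 28.4 in F-EPCs. All M-EPC reads came from 1 library, and even that library lay below the lowest F-EPC library. A count of 0 allows up to 3 reads, which is a normalized count of 2.86 in M-EPC replicate 1 and of 3.59 in replicate 3, counting error only. The means were 2.39 ± 4.15 and 26.5 ± 5.64 (SD, n = 3 each), an 11.1-fold difference, and the log2 fold change was -3.75 (SE 0.89, adjusted p = 0.00872 in limma). The size depended on the pseudocount, with -5.97 at a pseudocount of 0.1. Without M-EPC replicate 2 it was -4.76, and Cxcl5 was then at least 8.24-fold lower in M-EPCs at a floor of 3 reads per library.

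Between M-EPCs and OVX-EPCs, Angpt1, Pdgfa and Cxcl5 were listed and all 3 were lower in M-EPCs. All 3 were called, against 98.8% of the 1317 listed genes, and 58.0% of listed genes were called lower in M-EPCs. The libraries did not overlap for any of the 3 or for 99.2% of listed genes. The share of calls lower in M-EPCs was 58.7%, and 47.4% with DESeq2's own size factors, which moved the median log2 fold change by 0.63. This comparison uses the same M-EPC libraries as the one with F-EPCs, so that the 2 sets of values are given side by side and are not independent.

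Angpt1 was read 192, 225 and 141 times in OVX-EPCs. Its normalized counts were 5.84, 5.51 and 6.11 in M-EPCs and 185.0, 212.2 and 136.0 in OVX-EPCs. No M-EPC library came near the OVX-EPC libraries, the lowest of which was 22.3 times above the highest M-EPC library. The means were 5.82 ± 0.298 and 177.7 ± 38.6 (SD, n = 3 each), a 30.5-fold difference. The log2 fold change was -4.69 (SE 0.20, adjusted p = 3.39e-05 in limma), rank 73 of 1317.

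Cxcl5 was read 66, 45 and 53 times in OVX-EPCs, with normalized counts of 63.6, 42.4 and 51.1, against 0, 7.35 and 0 in M-EPCs. The OVX-EPC libraries were all above the M-EPC libraries. The means were 2.45 ± 4.24 and 52.4 ± 10.6 (SD, n = 3 each), a 21.4-fold difference. The log2 fold change was -4.70 (SE 0.87, adjusted p = 0.00297 in limma), rank 70 of 1317, and -6.94 at a pseudocount of 0.1. Without M-EPC replicate 2 it was -5.72, with Cxcl5 at least 15.9-fold lower in M-EPCs.

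Pdgfa differed least of the 3 genes listed against OVX-EPCs and was the best covered of them, while Mdk was not listed there. It was read 139, 185 and 120 times in M-EPCs and 346, 333 and 371 times in OVX-EPCs, or 135.4, 169.9 and 146.5 against 333.3, 314.1 and 357.9 normalized counts. The 3 OVX-EPC libraries were all higher, and the closest pair of libraries differed 1.85-fold. The means were 150.6 ± 17.6 and 335.1 ± 22.0 (SD, n = 3 each), a 2.23-fold difference, with a log2 fold change of -1.15 (SE 0.15, adjusted p = 7.26e-04 in limma), rank 1122 of 1317. The call depended on the scaling: with library sizes recomputed from the listed genes the log2 fold change was -0.95 by TMM and -0.52 by RLE in edgeR and -0.52 in DESeq2. These fall short of the fold threshold while keeping the direction. Such scaling rests only on genes selected for a difference. By RLE it moved the median log2 fold change of all listed genes from -1.26 to -0.64. The lost call of Pdgfa cannot be told apart from this shift of the whole set. The exact permutation test gave p = 0.10 for Angpt1, Cxcl5 and Pdgfa alike.

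**Figure D1:**
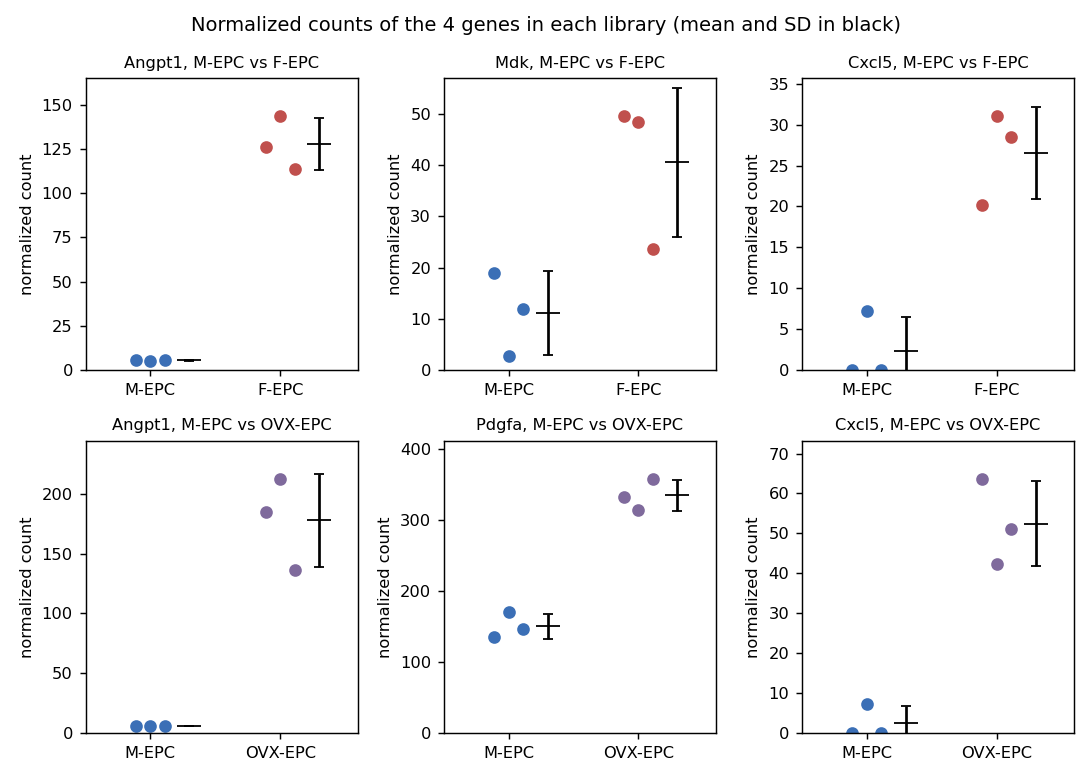
Normalized counts (linear axis from 0, each panel with its own range) of Angpt1, Mdk, Cxcl5 and Pdgfa in each library, as points, with the mean and SD in black; bars that would reach below 0 are cut at 0. M-EPC points lie below all points of the other group in every panel, with the narrowest gap for Mdk (1.24-fold).

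Per kilobase of exon of the protein-coding transcripts, the levels could be ordered within a group. In F-EPCs, Mdk with 30.6 ± 11.0 and Angpt1 with 30.0 ± 3.49 normalized counts per kb were within their spread of each other, and Cxcl5 with 16.9 ± 3.58 had its highest library (19.7) above the lowest Mdk library (17.9) but below all Angpt1 libraries (SD, n = 3 each). In OVX-EPCs, Pdgfa stood first with 113.9 ± 7.46 per kb, and Angpt1 with 41.7 ± 9.06 and Cxcl5 with 33.3 ± 6.74 overlapped. In M-EPCs on the scale of the OVX-EPC table, Pdgfa had 51.2 ± 5.99 per kb, against 1.37 ± 0.0699 for Angpt1 and 1.56 ± 2.69 for Cxcl5. On the scale of the F-EPC table, Mdk had 8.48 ± 6.19 per kb in M-EPCs. Pdgfa was thus far above Angpt1 and Cxcl5 in every M-EPC library, and the latter pair overlapped.

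The difference between F-EPCs and OVX-EPCs was not in the deposited table for these genes. For Angpt1 and Cxcl5, the reads of all 9 libraries are known from the other 2 tables, and they were divided by the size factors of the F-EPC and OVX-EPC table. This comparison was added after the data were seen and was fitted over 1277 of the 1288 genes with known reads in all libraries, of which 61.3% had an adjusted p under 0.05 and 46.4% were also past the fold threshold.

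On this scale Angpt1 had 130.9, 148.5 and 118.0 normalized counts in F-EPCs and 188.3, 215.3 and 138.5 in OVX-EPCs. The groups overlapped, since OVX-EPC replicate 3 lay below F-EPC replicate 2. The means were 132.5 ± 15.3 and 180.7 ± 39.0 (SD, n = 3 each), a 1.36-fold difference. The log2 fold change of F-EPCs against OVX-EPCs was -0.43 (SE 0.20, adjusted p = 0.118 in limma), and the exact permutation test gave p = 0.20. Without OVX-EPC replicate 3 it was -0.61 (adjusted p = 0.0343 in limma), and the count models with the authors' size factors gave adjusted p-values of 0.0394 (edgeR) and 0.0480 (DESeq2). When the scaling was recomputed from the genes fitted, which moved the median of all genes by 0.49 by TMM, the sign turned, with 0.046.

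Cxcl5 had 21.0, 32.1 and 29.5 normalized counts in F-EPCs and 64.7, 43.1 and 52.1 in OVX-EPCs. Every OVX-EPC library was higher than every F-EPC library, as was the case in one direction or the other for 67.4% of the 1288 genes. The same selection raises that share. The means were 27.5 ± 5.84 and 53.3 ± 10.9 (SD, n = 3 each), a 1.94-fold difference. The log2 fold change was -0.93 (SE 0.23, adjusted p = 0.0151 in limma), under the fold threshold, and the exact permutation test gave p = 0.10. With recomputed scaling it was -0.45 by TMM (adjusted p = 0.267 in edgeR).

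**Figure D2:**
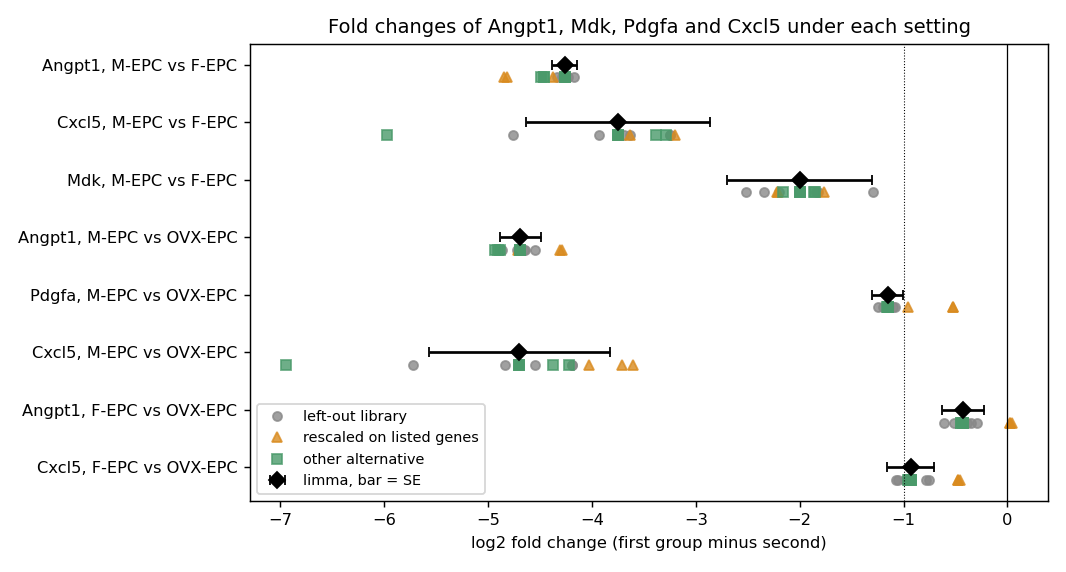
Log2 fold change (first group minus second) of each gene in each comparison, with the limma value and its SE as black diamonds and each other setting as a coloured symbol; the dotted line marks -1. Angpt1 and Cxcl5 stay below -3 in both comparisons with M-EPCs, Pdgfa moves above -1 when rescaled on the listed genes (-0.52), and the F-EPC and OVX-EPC values lie near 0 for Angpt1 when rescaled (0.046 by TMM).

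Of 17 receptors and binding partners of the 4 factors, 3 were listed between M-EPCs and F-EPCs, of which 2 were called lower and 1 higher in M-EPCs. The median log2 fold change of the 3 was -1.26, against -0.99 over all listed genes. Tie1, the partner of the angiopoietin receptor Tie2, measured 18.9 ± 2.69 in M-EPCs and 47.0 ± 11.1 normalized counts in F-EPCs (SD, n = 3; log2 fold change -1.26, SE 0.20, adjusted p = 0.00211 in limma). Cxcr2, the receptor of Cxcl5, was read 0 times in every M-EPC library and 31, 38 and 20 times in F-EPCs, which is at least 9.53-fold lower in M-EPCs at a floor of 3 reads per library.

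Pdgfra, the receptor of the PDGF A chain, went the other way, with 40, 15 and 15 reads in M-EPCs and 4, 4 and 2 reads in F-EPCs. Its groups did not overlap, and its log2 fold change was 2.41 (SE 0.44, adjusted p = 0.00320 in limma). Tek itself was not listed in any table, so the angiopoietin receptor is not described here.

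Between M-EPCs and OVX-EPCs, 3 of the 17 receptors were listed and all 3 were called lower in M-EPCs. The median was -3.66, or -2.18 with the receptors at 0 reads set to their bound, against -1.26 over all listed genes. Tie1 had 19.3 ± 2.77 and 78.8 ± 13.6 normalized counts (SD, n = 3; log2 fold change -1.97, SE 0.19, adjusted p = 2.94e-04 in limma). Cxcr1 and Cxcr2 were read 0 times in every M-EPC library. In OVX-EPCs Cxcr1 was read 8, 21 and 16 times and Cxcr2 13, 5 and 26 times. Their OVX-EPC means stood 4.60-fold and 4.53-fold above the floor of 3 reads per library in M-EPCs. These ratios leave out the spread in OVX-EPCs, which was wide for Cxcr2 (14.1 ± 10.3 normalized counts, SD, n = 3). Cxcr2 and its relative Cxcr1 thus stood at 0 in the group with the lowest Cxcl5. Cxcr1 was low in F-EPCs too (5, 0 and 2 reads), where Cxcl5 was read 20, 32 and 30 times.

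Of 18 ligands of the same families, 6 were listed between M-EPCs and F-EPCs, of which 3 were called higher and 3 lower in M-EPCs, with a median log2 fold change of -0.26. The 2 called PDGF ligands rose in M-EPCs. Pdgfb, the B chain, measured 1340 ± 106 in M-EPCs and 589.4 ± 90.1 normalized counts in F-EPCs (SD, n = 3; log2 fold change 1.19, SE 0.15, adjusted p = 7.74e-04 in limma). Pdgfc had 1559 ± 35.8 and 599.0 ± 79.5 (log2 fold change 1.39, SE 0.12, adjusted p = 2.31e-04).

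Between M-EPCs and OVX-EPCs, 4 of the 18 ligands were listed, 2 called higher and 2 lower in M-EPCs, with a median of -0.28. Pdgfb was again higher in M-EPCs, with 1370 ± 109 against 491.2 ± 80.2 normalized counts (SD, n = 3; log2 fold change 1.49, SE 0.17, adjusted p = 4.89e-04 in limma). In the same libraries Pdgfa was lower in M-EPCs, so the A chain and the B chain differed in opposite directions between M-EPCs and OVX-EPCs. The Pdgfb call against F-EPCs fell short of the fold threshold when the scaling was recomputed by RLE (log2 fold change 0.83), and so did that of Angptl7 (0.88).

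Among angiopoietin-like ligands, Angptl6 was lower in M-EPCs than in F-EPCs, with 7.31 ± 4.08 against 24.8 ± 6.71 normalized counts (SD, n = 3; log2 fold change -1.72, SE 0.43, adjusted p = 0.0103 in limma). Angptl7 had 87.7 ± 27.5 against 37.5 ± 12.7 normalized counts (log2 fold change 1.20, SE 0.34, adjusted p = 0.0158), and 89.7 ± 28.1 against 42.5 ± 16.7 in M-EPCs and OVX-EPCs (1.07, SE 0.36, adjusted p = 0.0266). The Angptl7 calls rested on single libraries. Against F-EPCs the call was lost without M-EPC replicate 2 (log2 fold change 0.99) or F-EPC replicate 1 (adjusted p = 0.0512 in limma). Against OVX-EPCs it was lost without M-EPC replicate 1 or 2 or OVX-EPC replicate 1 or 2 (adjusted p from 0.0712 to 0.0854).

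**Figure D3:**
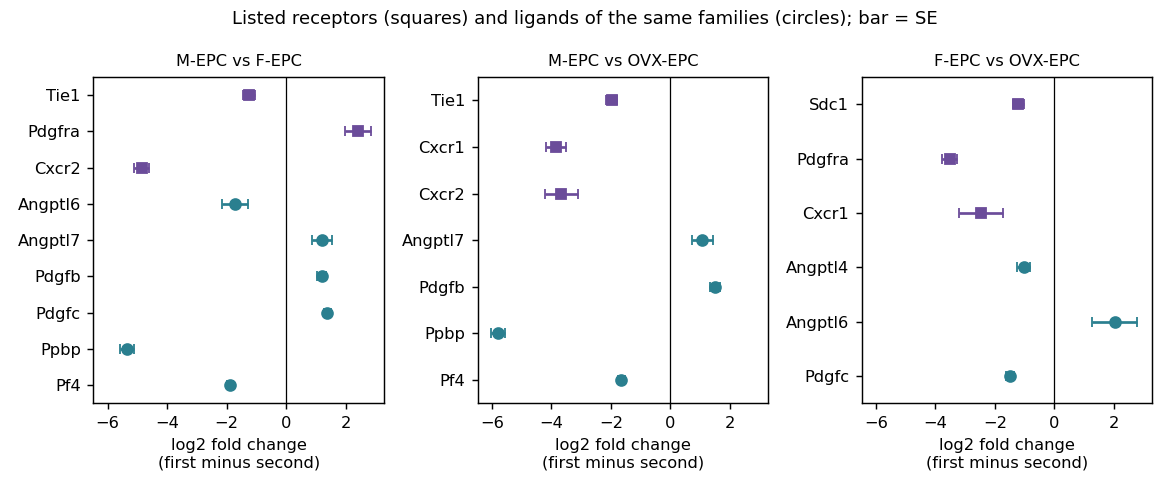
Log2 fold change (first group minus second, with SE) of the listed receptors (squares) and ligands of the same families (circles) in each comparison. Ppbp is at -5.35 in M-EPCs against F-EPCs. The points of Cxcr2 in both M-EPC comparisons depend on the pseudocount, since Cxcr2 had no read in M-EPCs (nor had Cxcr1 beside OVX-EPCs). Against F-EPCs, Pdgfra and Pdgfb are above 0.

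Cxcl5 lies beside Ppbp and Pf4 within 14.0 kb of chromosome 5. Ppbp, the precursor of platelet basic protein, is a CXC ligand with the Glu-Leu-Arg codons shown above, and Pf4, platelet factor 4, is one without them. Ppbp was read 48, 84 and 36 times in M-EPCs, 2139, 2245 and 2377 times in F-EPCs and 3072, 3331 and 3194 times in OVX-EPCs. Its log2 fold changes were -5.35 (SE 0.23, adjusted p = 4.25e-05 in limma) against F-EPCs and -5.79 (SE 0.24, adjusted p = 3.39e-05) against OVX-EPCs.

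Pf4 was lower in M-EPCs too, with 953.6 ± 40.0 against 3527 ± 65.6 normalized counts in F-EPCs (SD, n = 3; log2 fold change -1.89, SE 0.09, adjusted p = 4.38e-05 in limma) and 974.9 ± 41.9 against 3049 ± 206 in OVX-EPCs (-1.64, SE 0.13, adjusted p = 1.58e-04). The 3 neighbours were therefore all lower in M-EPCs, although only Cxcl5 and Ppbp carry the motif. The next ligands of the cluster, Cxcl3, Cxcl15, Cxcl1 and Cxcl2, were not listed in any table.

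Cxcl9 and Cxcl10, which like Pf4 lack the motif, were highest in M-EPCs, unlike Pf4, and Cxcl9 lies about 1560 kb from Cxcl5. Cxcl9 measured 581.2 ± 55.8 in M-EPCs and 13.5 ± 10.5 normalized counts in F-EPCs (SD, n = 3; log2 fold change 5.59, SE 0.55, adjusted p = 3.16e-04 in limma). Cxcl10 had 627.2 ± 71.2 and 42.2 ± 8.04 (3.87, SE 0.17, adjusted p = 4.25e-05). Against OVX-EPCs the log2 fold changes were 2.99 (SE 0.16) for Cxcl9 and 2.72 (SE 0.26) for Cxcl10. M-EPC libraries were therefore lowest for Cxcl5 and highest for Cxcl9 and Cxcl10, with no overlap of libraries in either comparison.

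**Figure D4:**
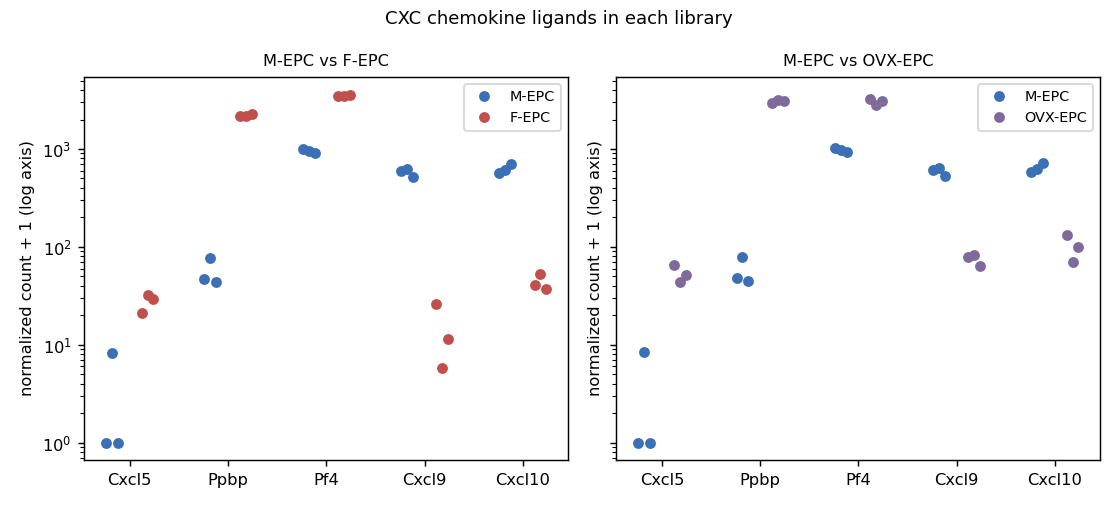
Normalized count + 1 (log axis) of the 5 CXC ligands in each library, with M-EPCs beside F-EPCs (left) and OVX-EPCs (right). Cxcl5, Ppbp and Pf4 are lower in all M-EPC libraries and Cxcl9 and Cxcl10 are higher, and 2 of the M-EPC points for Cxcl5 are at 0 counts.

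Other secreted factors moved in both directions. Of 44 further proangiogenic factors, 5 were listed between M-EPCs and F-EPCs, 3 called higher and 2 lower in M-EPCs, with a median of 1.17. Spp1, osteopontin, was lower with a log2 fold change of -4.26 (SE 0.09, adjusted p = 4.41e-06 in limma), and Edil3, an integrin-binding matrix protein, had no read in F-EPCs, which is at least 8.87-fold lower than in M-EPCs. Against OVX-EPCs, 3 were listed and all 3 were called lower in M-EPCs, with a median of -1.52, Spp1 leading with -2.63 (SE 0.12, adjusted p = 3.69e-05). The counts changed with the scaling: by RLE in edgeR, 2 were higher and 2 lower against F-EPCs and 1 lower against OVX-EPCs. Without M-EPC replicate 3, 2 were higher against F-EPCs.

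Of 17 secreted antiangiogenic factors, 8 were listed between M-EPCs and F-EPCs, 5 called higher and 3 lower in M-EPCs, with a median of 1.42. Against OVX-EPCs, 6 were listed, 2 called higher and 4 lower, with a median of -1.35. Besides Cxcl9, Cxcl10 and Pf4, this list holds Thbs2, a matrix protein that restrains vessel growth. Thbs2 had 1 read over the 3 M-EPC libraries, 31 over the F-EPC and 63 over the OVX-EPC libraries. Scaled by the size factors, these were 30.2 times (exact 95% interval 5.04 to 1232) and 59.0 times (10.2 to 2366) the M-EPC level, and the log2 fold change moved with the setting from -5.49 to -2.94 and from -6.30 to -3.36. Sema3a, a semaphorin, was higher in M-EPCs in the table with F-EPCs (2.88, SE 0.64, adjusted p = 0.00702 in limma). It was not listed against OVX-EPCs. By RLE, 4 were higher and 3 lower against F-EPCs. Against OVX-EPCs, the 4 lower became 3 by TMM and by RLE and without M-EPC replicate 2, where Timp1, a metalloproteinase inhibitor, went from -1.06 to -0.87, -0.44 and -0.98.

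Between F-EPCs and OVX-EPCs, where none of the 4 genes was listed, 3 receptors and 3 family ligands were. Pdgfra was read 4, 4 and 2 times in F-EPCs and 46, 49 and 53 times in OVX-EPCs (log2 fold change -3.52, SE 0.25, adjusted p = 1.82e-04 in limma), and it was called lower in F-EPCs under each of the 15 alternatives. Pdgfc (-1.50), Sdc1 (-1.22), Cxcr1 (-2.47) and Angptl4 (-1.04) were called lower and Angptl6 (2.02) higher in F-EPCs. With the scaling recomputed by TMM, Pdgfra was the only receptor called and Angptl6 the only ligand called, and Angptl4 turned to 0.11. At a pseudocount of 0.1, Cxcr1 and Angptl6 had adjusted p-values of 0.0602 and 0.0635 in limma.

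Among those, Cxcr1 lost its call without OVX-EPC replicate 2 (adjusted p = 0.0628 in limma) or 3 (0.0546). Angptl6 lost it without F-EPC replicate 1 (0.0994), 2 (0.0980) or 3 (0.0608) or OVX-EPC replicate 2 (0.0602). Angptl4 fell under the fold threshold without F-EPC replicate 3 (log2 fold change -0.84) or OVX-EPC replicate 3.

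The labelled cell type was compared with 20 endothelial markers. Of these, 6 were listed between M-EPCs and F-EPCs, 5 lower and 1 higher in M-EPCs, with a median of -1.82. The single marker that was higher in M-EPCs was Pecam1, which encodes the sorted antigen CD31 (487.2 ± 3.64 against 157.4 ± 7.56 normalized counts). Ly6a, which encodes the other sorted antigen, Sca-1, had 258.9 ± 48.6 against 575.5 ± 27.3. Vwf, with 232.0 ± 18.3 against 2351 ± 53.1 normalized counts, Esam, a junction protein (7.74 ± 1.26 against 46.4 ± 1.65), and Kdr were among the lower ones. Summed, the listed endothelial markers had 998 to 1114 normalized counts in M-EPCs and 3476 to 3567 in F-EPCs, and no listed marker was at 0. Vwf supplied most of the F-EPC sum, and the other 5 markers summed to 769 to 882 in M-EPCs and 1138 to 1213 in F-EPCs. Against OVX-EPCs, 4 were listed and all 4 were lower in M-EPCs, with a median of -2.83. Cdh5 and Tek were not listed in any table, so that these markers do not settle the labelled cell type.

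Markers of other cell types moved with Angpt1 and Cxcl5. Of 18 megakaryocyte and platelet markers, 17 were listed in each comparison with M-EPCs, and all 17 were called lower in M-EPCs, with medians of -4.81 and -5.79. Their summed level was 1526 to 1646 normalized counts in M-EPCs and 12622 to 12871 in F-EPCs, and beside OVX-EPCs 1558 to 1684 and 17308 to 18248. None of the 17 was at 0 in all M-EPC libraries. Ppbp and Pf4 belong to this list as well as to the ligands. All 8 basophil and mast cell markers were also lower in M-EPCs in both comparisons (medians -4.19 and -4.62, or -4.09 and -4.57 with Mcpt8 at its bound), with sums of 8.37 to 35.03 against 558.8 to 595.8 in F-EPCs and 8.55 to 35.8 against 792.8 to 965.0 in OVX-EPCs. Of these, Mcpt8 was at 0 in every M-EPC library. Their part in the values of Angpt1, Pdgfa and Cxcl5 was not tested.

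Of 11 haematopoietic stem and progenitor markers, 5 were lower in M-EPCs in the F-EPC table, and in that with OVX-EPCs 5 were lower and 1, Procr, was higher. Without F-EPC replicate 3, the 5 lower against F-EPCs became 4 (Kit, -0.94). Their sums were 31.1 to 44.0 against 372.5 to 417.4, and 253.2 to 285.7 against 623.3 to 653.7. Procr supplied most of the second M-EPC sum, and the 5 lower markers alone summed to 31.7 to 45.0 in M-EPCs and 549.1 to 605.6 in OVX-EPCs. Of 11 neutrophil markers, 6 and 4 were lower in M-EPCs, with sums of 78.0 to 106.0 against 642.0 to 691.7, and 23.4 to 53.3 against 183.9 to 264.3, and Cxcr2, which is on this list too, was at 0 in M-EPCs. The 4 against OVX-EPCs became 3 by TMM and RLE and without M-EPC replicate 1 or OVX-EPC replicate 2 or 3, where Ngp, a neutrophil granule protein, lost its call (-1.05, and -0.37 by RLE). Of 14 mesenchymal stromal markers, which include Pdgfra, 3 exceeded F-EPCs in M-EPCs and 5 fell below OVX-EPCs, and all 8 listed between F-EPCs and OVX-EPCs were lower in F-EPCs (5 by TMM). The 5 below OVX-EPCs became 4 by RLE and without M-EPC replicate 1 or 3 or OVX-EPC replicate 1 or 3, with the loss of Col1a1, and 3 with DESeq2's own size factors, with the loss of Col1a1 and Igfbp5. The sums of these 8 were 200.7 to 262.9 in F-EPCs and 950.3 to 1098 in OVX-EPCs. Of 12 macrophage markers, C1qa alone was listed, only against F-EPCs, where it was higher in M-EPCs (log2 fold change 1.20, SE 0.09, and 0.85 by RLE). M-EPC libraries averaged 20234 ± 1041.5 normalized counts of C1qa, and F-EPC libraries 8805.5 ± 338.3 (SD, n = 3 each). Either level was above the sum of the listed endothelial markers of that group (at most 1113.7 for M-EPC and 3566.7 for F-EPC libraries). The part of these cells in the values of the secreted factors and receptors was not tested.

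Between F-EPCs and OVX-EPCs the other lists were mixed. Of the listed genes, 3 megakaryocyte and platelet markers were called lower in F-EPCs (1 by TMM, and 2 without F-EPC replicate 1 or 3 or OVX-EPC replicate 3), 4 of 5 neutrophil markers were higher (3, without Ngp, when F-EPC replicate 3 or OVX-EPC replicate 1 or 2 was left out), and of the endothelial markers Ly6a was higher and Pecam1 lower (Pecam1 not called by TMM). Procr, the 1 listed haematopoietic stem and progenitor marker, was called higher in F-EPCs (log2 fold change 1.47, SE 0.22, adjusted p = 0.00153 in limma). No basophil and mast cell or macrophage marker was listed there. Of the secreted factors, 1 of 7 proangiogenic ones was called higher and 6 lower, and 5 of 5 antiangiogenic ones were called lower in F-EPCs, which became 1 higher and 1 lower, and 3 lower, by TMM. With 1 library left out, the 6 lower proangiogenic ones ranged from 3 (without F-EPC replicate 2) to 6, being 4 without OVX-EPC replicate 2 or 3 and 5 without F-EPC replicate 3 or OVX-EPC replicate 1, and the 5 antiangiogenic ones became 4 without OVX-EPC replicate 1. The share of all calls that were lower in F-EPCs went from 68.6% to 36.9% by TMM, with a shift of the median log2 fold change of 1.13.

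For each gene, the genes with the most similar profile were found by the root mean square difference of log2(normalized count + 1), centred on its own mean, over the libraries with known reads. For Angpt1, over 9 libraries and 1287 genes, these were Tmem151b (0.272), Ehd3 (0.327) and Cavin2 (0.331), against a median of 2.07 over all genes. For Cxcl5 they were Fhl1 (0.455), Peg10 (0.571) and F11r (0.577). The Angpt1 neighbours thus lay closer to it than the Cxcl5 neighbours did to Cxcl5. Among them, Tmem151b had a mean of 0 in M-EPCs, 12.3 in F-EPCs and 18.4 in OVX-EPCs, so that its distance to Angpt1 depends on the pseudocount. For Mdk, over 6 libraries and 2092 genes, Reep2 (0.273), Plekhh2 (0.284) and Exoc3l2 (0.373) were nearest, and for Pdgfa, over 6 libraries and 1316 genes, Arhgap24 (0.0726), Itgax (0.0732) and Nckap1 (0.0842). These are descriptions of profiles over few libraries that share size factors.

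In the table against F-EPCs, the gene annotation deposited by the authors groups Mdk under positive regulation of angiogenesis, with 25 listed genes in that table, of which 17 had a lower and 8 a higher value in M-EPCs. Growth factor activity held Mdk among 11 genes there (6 lower, 5 higher) and Pdgfa among 8 genes against OVX-EPCs (7 lower, 1 higher). Cytokine receptor binding held Angpt1 and Cxcl5 among 36 genes (18 lower, 18 higher) and 24 genes (16 lower, 8 higher). Over all genes with an annotation, 60.7% were lower in M-EPCs in the table with F-EPCs and 74.3% in the table with OVX-EPCs. These terms were picked after the data were seen.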

How the data were processed

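RNA from 9 libraries was analysed as 3 groups of 3, grouped by the sample labels. The study's methods and the submitters' processing notes name HISAT2, Cufflinks with Cuffnorm, DESeq and the build mm10, with no versions, and a screen at a fold change of 2 and an FDR of 0.05, whose sign the methods print as greater than and which was read here as an FDR below 0.05. The deposited signal is a normalized count, reads divided by the authors' size factor, and 100% of values gave whole reads within 0.1 reads. The authors also deposited their own log2 fold change and a p-value for each gene, which were not used. For genes present in more than 1 table, each library had the same reads in every table (807, 435 and 292 genes compared).

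Each table was fitted with limma 3.58.1 (R 4.3.3) on log2(normalized count + 1) of all genes with a mean of at least 1, with Benjamini-Hochberg adjustment over the table. A fold change on this scale understates that of low genes. Because whole reads could be recovered, edgeR 4.0.16 and DESeq2 1.42.0 were run as alternatives, with the authors' size factors and with factors recomputed from the listed genes, besides a pseudocount of 0.1, other filters, stricter thresholds, a replicate block and each library left out. The script was tested on simulated data. Single genes were also compared by an exact two-sided permutation test over libraries. Intervals and floors cover counting error only. A fold given as at least a value sets the mean of the other group against the floor, and leaves out the spread of that group. No batch or date is given by the labels.

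The 4 genes and the gene lists were chosen with earlier results of these data known. Named genes were the 4 members, every listed receptor and family ligand, up to 4 genes with the largest absolute change of each other list and the 3 nearest profiles of each member. Outside this rule, and after their values were seen, Ly6a was named as a sorted antigen, Procr as the single marker of its list with the opposite sign, and Timp1, Ngp, Col1a1, Kit and Ccn1 as genes that lost a call. Sequences and exon lengths were taken from GENCODE M21 (GRCm38), credited to that annotation, for genes matched by symbol.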

Additional observations from a re-analysis of the deposited data

How the results depend on the processing

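Each value was recomputed under 15 alternatives. Angpt1 and Cxcl5 kept their direction and their call against M-EPCs under all 15 in both comparisons, with log2 fold changes from -4.85 to -4.18 (Angpt1) and -5.97 to -3.20 (Cxcl5) against F-EPCs and from -4.94 to -4.29 and -6.94 to -3.60 against OVX-EPCs. Mdk kept its direction in 15 and its call in 11 (-2.51 to -1.29), and Pdgfa its direction in 15 and its call in 12 (-1.24 to -0.52). Of the 3 genes listed, 2 or 3 stayed called against F-EPCs with a library left out, and 3 against OVX-EPCs, beside 1864 to 1913 of all 2093 and 1208 to 1235 of all 1317 genes, and at an adjusted p under 0.01 they were 2 and 3 (82.8% and 86.2% of all genes). With a log2 fold change of 2 or more in size required, they were 3 and 2 (35.3% and 43.6% of all genes), Pdgfa being lost against OVX-EPCs. Between F-EPCs and OVX-EPCs, the log2 fold change of Angpt1 reversed to 0.046 (TMM), 0.029 (RLE) and 0.029 (DESeq2's own factors), and that of Cxcl5 lost its adjusted p under 0.05 in 4 of 15. Recomputed scaling uses only genes selected for a difference. With it, 404 (TMM), 405 (RLE) and 380 (DESeq2) genes were called between F-EPCs and OVX-EPCs in place of 796. The cause was not tested.

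With replicate number as a block, Mdk had an adjusted p of 0.0504 (limma) and lost its call, leaving 2 genes called against F-EPCs, and 3 against OVX-EPCs. Cxcl5 between F-EPCs and OVX-EPCs had 0.0573, Angptl7 had 0.0547 and 0.0743 against F-EPCs and OVX-EPCs, and Cxcr1 between F-EPCs and OVX-EPCs had 0.0509. Of the other lists, Col1a1 (0.0809, M-EPCs against OVX-EPCs) and Ccn1 (0.0729, F-EPCs against OVX-EPCs) lost their calls. Deviations of same-numbered libraries correlated between -0.019 and 0.0324. In these selected genes that gave no sign of pairing but cannot exclude it. The block values are given beside the unpaired fits for completeness. Few reads limit Mdk, Angpt1 and Cxcl5 in M-EPCs, with 33, 17 and 8 reads over 3 libraries.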
